A study of Mus musculus with 18 samples.

Results

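The genes described here are the chaperones and folding enzymes of the endoplasmic reticulum (ER), the sensors and transcription factors of its stress response, the machinery that degrades its misfolded proteins, and the cytosolic heat shock chaperones. They were chosen by name, 37 genes in all, with *Hspa5* and *Ddit3* as the markers of the set, and the rule that names them uses no measured value. Earlier results of these data were known when the genes were chosen. All 37 were found among the 25254 transcript clusters with a gene symbol, of 28856 transcript clusters in the table. A transcript cluster is the group of probes that the array sums into 1 signal. *Hspa1a* and *Hspa1b* share 1 cluster, so the 37 genes rest on 36 clusters, and 34 of these reached a signal of 100 in some array of the 18. The exceptions were *Trib3* and *Chac1*.

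The arrays held RNA of GFP positive cells sorted from dissociated glomeruli of mice 5 weeks of age, with 3 arrays in each of 6 groups. Mesangial cells were sorted through a Meis1-GFP transgene, endothelial cells through Tie2-GFP and podocytes through a GFP transgene of their own, each from mice labelled CD2AP-/- and from mice labelled wild type. The mutant allele was *Cd2ap* tm1Shaw on a B6.129X1 line, carried in all cells of the mouse, and *Cd2ap* codes for an adaptor protein of the podocyte slit diaphragm. The reporter transgene changed with the cell type, so cell type and reporter cannot be told apart, and in the deposited column names the mesangial controls carry +/- where the other controls carry a double plus, although their records give the genotype as wild type and their titles as control. The arrays of a group are called A, B and C here, which are names without order.

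As background, chaperones such as *Hspa5* (BiP) and *Hsp90b1* (Grp94) bind unfolded proteins in the ER lumen, and the disulfide isomerases form and reshuffle their disulfide bonds. When unfolded proteins build up, the sensors *Ern1* (IRE1), *Eif2ak3* (PERK) and *Atf6* signal to the nucleus. *Xbp1* and *Atf6* then induce chaperones and degradation factors, while *Eif2ak3* acts through *Atf4* and *Ddit3* (CHOP) on genes such as *Trib3*, *Chac1* and *Asns*. In the cytosol the heat shock factor *Hsf1* induces *Hspa1a*, *Hspa1b*, *Hspb1*, *Dnajb1*, *Hsph1* and *Bag3*. Podocytes secrete basement membrane proteins and carry nephrin, a membrane protein that is folded in the ER, and ER stress in podocytes is a known feature of several forms of glomerular disease.

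The ER stress response element is the site through which *Atf6* and *Xbp1* act together with the CCAAT-binding factor NF-Y. It is shown first because it marks a subset of the members followed below. RefSeq promoters of the mouse build GRCm38.p6, 250 bases before to 50 after each start site, were given for 31 of the 37 members. The letters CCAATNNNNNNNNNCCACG, where N is any base, were searched on both strands. They were found in promoters of 8 of the 31 members, *Hspa5*, *Hsp90b1*, *Calr*, *Canx*, *Dnajc3*, *Creld2*, *Pdia6* and *Syvn1*, and in 0.119% of the 32851 promoters in the table. Each stretch holds the element with 10 bases on either side, and CCAAT and CCACG are in capitals.
Hspa5: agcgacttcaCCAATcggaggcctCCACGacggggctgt
Hsp90b1, farther site: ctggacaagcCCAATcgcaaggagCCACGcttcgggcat
Hsp90b1, nearer site: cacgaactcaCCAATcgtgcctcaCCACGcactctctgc
Calr: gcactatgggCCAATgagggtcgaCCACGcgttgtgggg
Canx: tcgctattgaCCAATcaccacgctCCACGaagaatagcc
Dnajc3: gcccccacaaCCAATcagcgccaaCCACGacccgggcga
Creld2: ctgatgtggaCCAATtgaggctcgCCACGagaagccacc
Pdia6: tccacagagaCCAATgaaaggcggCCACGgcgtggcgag
Syvn1: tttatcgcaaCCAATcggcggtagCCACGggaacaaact

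In GRCm38.p6 the *Hspa5* stretch lies at chr2:34772015-34772053 on the plus strand, and its element begins 65 bases before the start site. The 2 stretches of *Hsp90b1* lie at chr10:86705628-86705666 on the minus strand and chr10:86705523-86705561 on the plus strand, with elements that reach to 212 and 107 bases before the start site. The others lie at chr8:84847065-84847103 (*Calr*, plus strand), chr11:50325790-50325828 (*Canx*, minus strand), chr14:118937817-118937855 (*Dnajc3*, plus strand), chr15:88819510-88819548 (*Creld2*, minus strand), chr12:17266481-17266519 (*Pdia6*, plus strand) and chr19:6046522-6046560 (*Syvn1*, plus strand). The shorter piece CCACG alone stood in 32.8% of all promoters and in those of 23 of the 31 members. A match describes these letters in this window and is not a measured binding site.

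The C/EBP-ATF element, through which *Atf4* and *Ddit3* act with C/EBP factors, was searched as TGATGNAA on both strands and was found in 3.97% of all promoters. Of the members it stood in the promoters of *Asns*, *Chac1*, *Herpud1* and *Trib3*. The upstream sites of 3 of them are shown with 10 bases on either side and the fixed letters in capitals, at chr6:7693215-7693242, chr2:119351039-119351066 and chr8:94386307-94386334 in this order, all on the minus strand.
Asns: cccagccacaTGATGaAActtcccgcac
Chac1: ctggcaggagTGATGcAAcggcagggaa
Herpud1: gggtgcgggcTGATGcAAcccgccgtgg

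The heat shock element, searched as 3 inverted pieces spelled GAANNTTCNNGAA on both strands, stood in 0.603% of all promoters and, of the members, in those of *Hsph1*, downstream of its start site. Other spellings of this element were not searched.

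Genotypes were compared within each cell type with limma on log2 signals, over those transcript clusters whose signal reached 100 in any of its 6 arrays. A cluster passed the screen of the study's methods when its unadjusted p was under 0.05 and its fold change exceeded 1.5, and the Benjamini-Hochberg adjusted p over all tested clusters is given beside it. The words rose and fell below refer to this screen. *Cd2ap* itself, read as a check of the labels, differed by -0.31 (log2, mutant minus wild type, adjusted p = 0.151) in mesangial cells, by -0.23 (adjusted p = 0.504) in podocytes and by 0.18 (adjusted p = 0.336) in endothelial cells. It was not lower in the endothelial arrays labelled mutant, so directions rest on the labels, and whether its probes lie in the part that the allele removes was not checked. Mesangial wild type array C stood apart: its podocyte markers summed to 4350 and its endothelial markers to 7994, against at most 1123 and 3452 in the other 5 mesangial arrays. Its 4 erythroid markers summed to 7253, against at most 584 in the other mesangial arrays, and its tubule markers to 1857, against at most 476. Leukocyte markers summed to 1476 in this array and to 2144 in mesangial mutant array B, against at most 628 in the other 4, and without mutant array B 2 of the 3 mesangial calls below remained. In bulk RNA of sorted cells, fewer cells of a type and less RNA per cell cannot be told apart.

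In mutant podocytes the group means of the ER chaperones and disulfide isomerases lay below wild type. All 14 had a negative log2 difference, with a median of -0.37 and a range from -0.66 to -0.22, where the median over all 12113 tested clusters was -0.04. *Hyou1*, an Hsp70-like exchange factor for *Hspa5*, fell by 0.65, and the isomerase *Pdia4* fell by 0.66. In 10 of the 14 every mutant array lay below every wild type array, beside 14.3% of all clusters, and mutant arrays B and C lay below every wild type array in 14 of 14 genes while array A did so in 10. In array A 2 of the genes, *Dnajb9* and *Manf*, lay above every wild type array. No single gene of the 14 passed an adjusted p of 0.05 in limma.

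**Figure D1:**
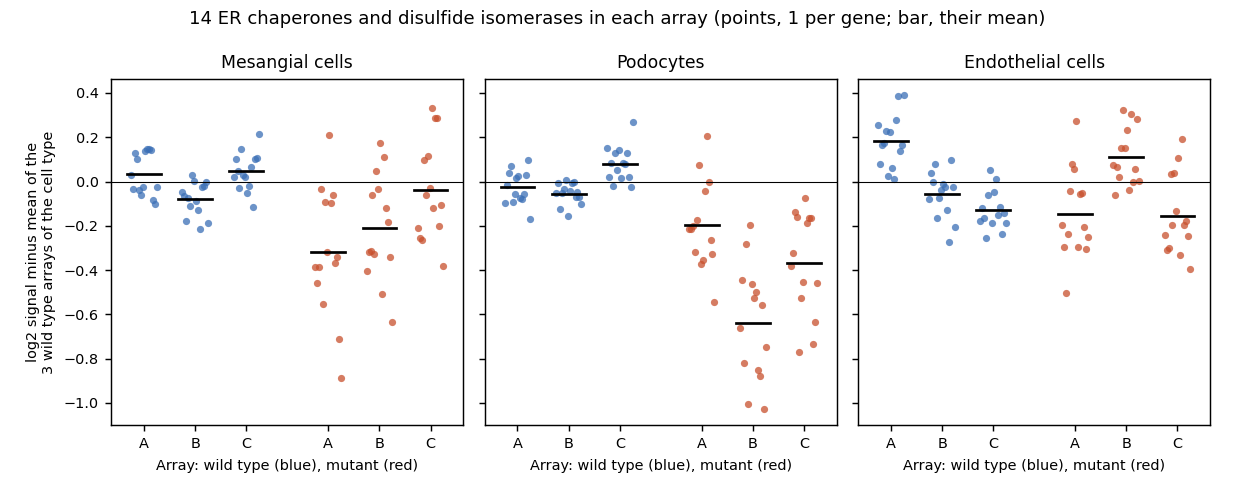
Each point is 1 of 14 genes in 1 array, as log2 signal minus the mean of the 3 wild type arrays of that cell type, and the bar is the mean of the 14. In podocytes the means of mutant arrays A, B and C lie at -0.20, -0.64 and -0.37, below the wild type arrays at -0.05 to 0.08. In mesangial cells the mean of mutant array C lies within the range of the wild type arrays. In endothelial cells the arrays of both genotypes are interleaved.

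*Hspa5*, the main Hsp70 chaperone of the ER lumen, had signals of 1012, 743 and 902 in mutant podocyte arrays A, B and C and of 1096, 1132 and 1303 in the wild type arrays. Its mutant arrays were the lower 3 of the 6, with array B lowest. The log2 difference was -0.42 ± 0.16 (SE, limma adjusted p = 0.296), which is 1.34-fold lower and under the fold threshold.

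*Hyou1* read 248, 139 and 164 in the mutant podocyte arrays and 262, 273 and 306 in wild type, a log2 difference of -0.65 ± 0.22 (SE, limma adjusted p = 0.253). *Pdia4*, an isomerase with several thioredoxin domains, read 564, 347 and 455 against 756, 673 and 695, a difference of -0.66 ± 0.19 (adjusted p = 0.209). For both genes the groups did not overlap, and mutant array A was the one nearest to wild type. The other isomerases differed by similar amounts, *Pdia6* by -0.58 (adjusted p = 0.205) and *Pdia3*, the partner of calnexin and calreticulin, by -0.52 (adjusted p = 0.213), and neither reached the fold threshold.

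Of the remaining ER chaperones in podocytes, *Hsp90b1* differed by -0.33, *Calr* by -0.39, *Canx* by -0.25, the co-chaperones *Dnajb11* and *Dnajc3* by -0.43 and -0.32, and in each of these the groups did not overlap. *Dnajb9*, *Sdf2l1*, *Manf* and *Creld2* had differences between -0.35 and -0.22 with overlapping arrays. The 8 members whose promoters hold the ER stress response element all had negative differences, with a median of -0.34 and a range from -0.58 to -0.22. The 19 tested members with a promoter but without the element had a median of -0.19, 12 negative and 7 positive. In mesangial cells the 8 members with the element were 5 negative and 3 positive, with a median of -0.19 beside -0.13 without it. In endothelial cells they were 6 negative and 2 positive, with a median of -0.10 beside 0.03. Of the 8 members all but *Syvn1* belong to the 14 ER chaperones and isomerases, which all had negative differences in podocytes. The members without the element also include sensors, degradation factors and heat shock chaperones. *Hyou1* and *Pdia4*, the ER members past the screen in podocytes, are not among the 8. Element and role were thus not separated, and the sets were not tested against each other.

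The 6 sensors and transcription factors were divided, with 3 positive and 3 negative differences. *Ddit3*, whose cluster also carries the neighbouring gene *Mars*, read 309, 269 and 432 in mutant and 267, 261 and 310 in wild type podocytes. Array C of the mutant was the highest of the 6 and the groups overlapped, with a log2 difference of 0.25 ± 0.19 (SE, limma adjusted p = 0.587). Without mutant array C the difference was 0.05, and without mutant array B 0.39. *Atf4* differed by 0.22 with all mutant arrays above wild type (limma adjusted p = 0.480) and *Xbp1* by 0.03. *Eif2ak3* read 156, 97.5 and 94.3 in mutant and 130, 114 and 116 in wild type arrays. *Ern1* read 76.9, 82.0 and 104 against 92.8, 105 and 99.9. Both lay partly under 100, so no fold is given for them. *Atf6* differed by -0.22 (adjusted p = 0.423) with all mutant arrays below wild type. The targets *Trib3*, *Chac1* and *Asns* stayed under a signal of 100 in all 6 podocyte arrays and were not tested there.

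Of the degradation factors, *Edem1*, which hands misfolded glycoproteins to the exit route, differed by -0.35 (adjusted p = 0.342) with no overlap of the groups. The ubiquitin ligase *Syvn1* differed by -0.22, its partner *Sel1l* by -0.20 and *Herpud1* by -0.02. None of the 4 passed the screen.

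Among the cytosolic chaperones of podocytes the cluster of *Hspa1a* and *Hspa1b*, the inducible Hsp70 genes, fell by 0.83 ± 0.32 (SE, limma adjusted p = 0.319). Its signals were 700, 298 and 438 in mutant and 694, 1085 and 681 in wild type arrays. Mutant array A lay within the wild type range, so the groups overlapped. A dimmer cluster shared by both genes also passed the screen, at -0.64, and a dimmer one of *Hspa1a* alone did not, at -0.48. *Hsph1*, an exchange factor for Hsp70, differed by -0.44 (adjusted p = 0.375), and the other 7 tested clusters lay between -0.25 (*Cryab*) and 0.29 (*Hspb8*). A second, dimmer cluster of *Cryab* had the opposite sign, at 0.31, and neither passed the screen. For *Hspa8*, the constitutive Hsp70, the brightest cluster differed by -0.15, whereas 2 clusters that also carry the small nucleolar RNAs *Snord14c* and *Snord14d* passed the screen at -1.08 and -1.10, so the probes of this locus disagreed.

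Over all members in podocytes, 3 of the 33 tested clusters fell and 0 rose, beside 4.34% of all tested clusters lower and 1.26% higher. None passed an adjusted p of 0.05 with a fold over 1.5, which 0.0578% of all clusters did, and 9 were lower and 0 higher at an unadjusted p under 0.05, beside 10.9% and 3.39% of all clusters. The groups did not overlap in 12 members that were lower and 1 that was higher, beside 14.3% and 6.97% of all clusters. Without mutant array B no member passed the screen, with *Hyou1* at -0.47, *Pdia4* at -0.48 and *Hspa1a* at -0.53, and 13 of the 14 ER genes stayed below wild type with a median of -0.25. *Hyou1* also missed the screen without mutant array C (-0.59) or wild type array C (-0.58), and *Hspa1a* without mutant array C (-0.81) or wild type array B (-0.61). Without mutant array A, or without wild type array A, 5 members fell.

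Marker genes of other glomerular cells also differed between the genotypes in the podocyte arrays. Of 9 endothelial markers 8 fell in the podocyte arrays labelled mutant, among them *Kdr* at -2.44 and *Emcn* at -2.53 on the log2 scale, and their summed signal was 2729, 1215 and 799 in mutant arrays A, B and C against 4344 to 5774 in wild type. *Esam* stayed under 100 in the mutant arrays. Of 7 tested mesangial markers 3 fell, with sums of 1038 to 2839 against 2921 to 3648. Of 4 tested renin and smooth muscle markers 2 rose, *Ren1* by 1.73 and *Acta2* by 1.26, with sums of 2970, 2374 and 1022 in mutant arrays A, B and C against 766 to 783 in wild type. Erythroid markers summed to 5405, 720 and 232 in the mutant arrays against 2987 to 3989, and neither of the 2 tested passed the screen. Wild type array B, without which *Hspa1a* missed the screen, had the highest tubule sum, 948 against 550 to 622 in the other podocyte arrays. It also had the highest leukocyte sum, 1060 against 565 to 864, and no tubule or leukocyte marker passed the screen. Of 18 immediate early genes 2 rose, *Egr1* and *Gadd45b*, with 6 higher and 0 lower at an unadjusted p under 0.05 and 15 of 18 positive. The 9 podocyte markers summed to 12607 to 15881 in mutant and 14691 to 16531 in wild type arrays, and 1 of the 9 fell. The share of these differences in the ER chaperone values was not tested.

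**Figure D2:**
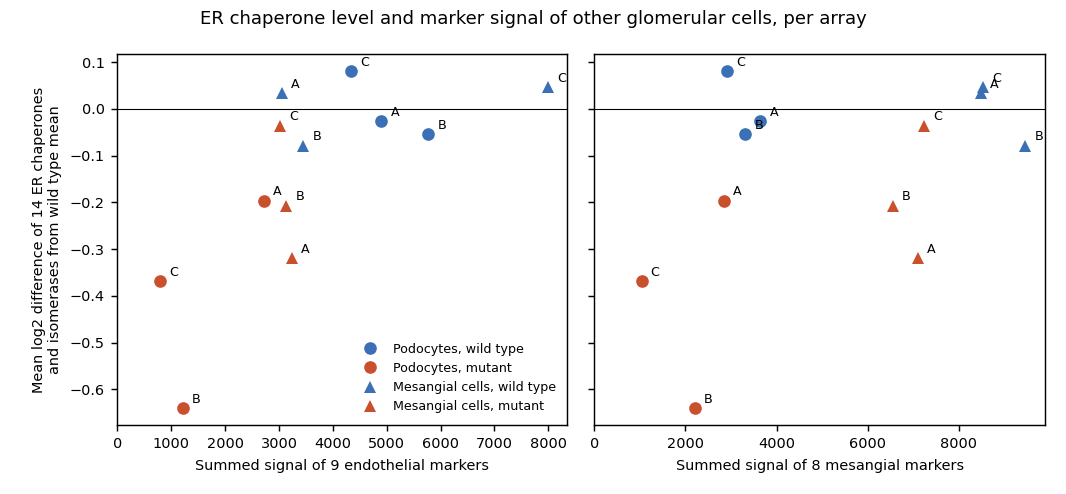
The vertical axis is the mean log2 difference of 14 ER chaperones and disulfide isomerases from the wild type mean of the cell type, and the horizontal axes are the summed linear signals of 9 endothelial and 8 mesangial markers, 1 point per array. Mutant podocyte arrays B and C have the lowest endothelial sums, 1215 and 799, and the lowest ER values, -0.64 and -0.37. The lowest sum is in array C and the lowest ER value in array B.

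In mutant mesangial cells the isomerase *Pdia6*, the *Hspa1a* and *Hspa1b* cluster and *Cryab* fell, and no member rose. These were 3 of 32 tested clusters, beside 3.12% of all 11457 tested clusters lower and 2.08% higher. None of the members passed an adjusted p of 0.05 with a fold over 1.5, which 2.20% of all clusters did, and 8 were lower and 2 higher at an unadjusted p under 0.05, beside 12.9% and 8.82% of all clusters. The groups did not overlap in 10 members that were lower and 3 that were higher, beside 16.3% and 12.3% of all clusters.

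*Pdia6* read 196, 234 and 278 in mutant and 355.9, 318 and 421 in wild type mesangial arrays. The groups were apart and the log2 difference was -0.63 ± 0.16 (SE, limma adjusted p = 0.0905). Without wild type array C, the array with signal of other cell types, it was -0.53, and without mutant array A -0.51, both under the fold threshold.

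*Cryab* is a small heat shock protein, and its cluster also carries *Hspb2*. It read 211, 337 and 343 in mutant and 473, 407 and 523 in wild type mesangial arrays, a difference of -0.68 ± 0.21 (SE, limma adjusted p = 0.133). *Hspa1a* and *Hspa1b* read 945, 539 and 425 against 1064, 1108 and 1002, a difference of -0.82 ± 0.27 (adjusted p = 0.156). Mutant array A was the lowest for *Cryab* and the highest of the mutant arrays for *Hspa1a* and *Hspa1b*, so the 2 chaperones did not follow the same array. *Hspa1a* and *Hspa1b* no longer passed the screen without mutant array B (-0.74), mutant array C (-0.57), wild type array A (-0.81) or wild type array B (-0.78), and 2 dimmer clusters of *Hspa1a*, at -0.57 and -0.56, did not pass. *Cryab* did not pass without mutant array A (-0.45). The mean over both clusters of *Cryab* differed by -0.48, under the fold threshold.

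*Hspa5* read 943, 931 and 1064 in mutant and 1255, 1191 and 1248 in wild type mesangial cells. All mutant arrays lay below all wild type arrays, with a log2 difference of -0.33 ± 0.09 (SE, limma adjusted p = 0.098) that is 1.26-fold lower. *Hsp90b1* and *Calr* differed by -0.34 and -0.32, also without overlap. Of the 14 ER chaperones and isomerases 10 were below wild type, with a median of -0.24 beside -0.02 over all clusters, and 4 were above, the highest of them *Dnajc3* at 0.24 with all mutant arrays above wild type. The means of the 14 lay at -0.32, -0.21 and -0.04 in mutant arrays A, B and C, against -0.08 to 0.05 in wild type. Mutant array C thus lay within the wild type range, and the highest wild type mean was that of array C. With 1 array left out at a time, 9 to 12 of the 14 were below.

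*Herpud1*, an ER membrane protein that recruits degradation factors, went the other way in mesangial cells. It read 204, 181 and 209 in mutant and 146, 154 and 147 in wild type arrays, without overlap, and differed by 0.40 ± 0.09 (SE, limma adjusted p = 0.0669), under the fold threshold. *Ddit3* differed by 0.13 (limma adjusted p = 0.641) with overlapping arrays, *Xbp1* by 0.23, *Atf6* by -0.01 and *Atf4* by less than that. *Eif2ak3* read 102, 103 and 104 in mutant and 81.0, 81.7 and 117 in wild type arrays. Its wild type signal was above 100 in array C only, so no fold is given for it. *Ern1*, *Trib3*, *Chac1* and *Asns* stayed under 100 in all 6 arrays.

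Of the heat shock chaperones of mesangial cells 7 of 9 clusters had negative differences, with *Hspb1* at -0.57 and *Hspb8* at -0.54 and overlapping arrays. For *Hspb1* the highest value was 527 in wild type array C against 207 to 286 in the other 5. The mesangial markers themselves summed to 6557 to 7245 in mutant and 8488 to 9471 in wild type arrays, and 2 of the 7 tested fell, *Itga8* and *Des*. Of the 9 endothelial markers 2 fell, *Tek* and *Ehd3*, and of the 9 podocyte markers 1 fell, with 8 of 9 differences negative. Of 5 renin and smooth muscle markers 2 rose, *Acta2* by 1.07 and *Tagln* by 0.88, with sums of 1592 to 2892 in mutant and 1326 to 1609 in wild type arrays. Of 17 immediate early genes, which rise quickly with dissociation and other stimuli, 4 rose (*Egr1*, *Egr2*, *Ier3* and *Myc*). The part of these markers in the chaperone values was not tested. Without wild type array C 2 members passed the screen, and without mutant array A 1 did.

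In mutant endothelial cells no member passed the screen, beside 2.96% of all 11330 tested clusters higher and 0.865% lower, and none passed with an adjusted p, which 1.13% of all clusters did. In limma 2 of the 31 tested members, *Sel1l* and *Bag3*, were higher and 0 lower at an unadjusted p under 0.05, beside 13.0% of all clusters higher and 5.47% lower, so the members' share was below that of all clusters. Both are described because they had the lowest p among the members, a choice made after the values were seen. *Hspa5* read 903, 1089 and 877 in mutant and 1235, 982 and 915 in wild type arrays, which overlapped, with a difference of -0.12 ± 0.14 (SE, adjusted p = 0.671). *Ddit3* differed by 0.03 (adjusted p = 0.907).

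*Sel1l*, the adaptor of the *Syvn1* ubiquitin ligase, read 426, 428 and 386 in mutant and 313, 302 and 292 in wild type endothelial arrays. All mutant arrays lay above all wild type arrays, with a difference of 0.45 ± 0.09 (SE, limma adjusted p = 0.0556), which is 1.37-fold and under the fold threshold. The Hsp70 partner *Bag3* read 451, 339 and 376 against 337, 262 and 271, a difference of 0.42 ± 0.14 (adjusted p = 0.195). Its groups were apart by a narrow margin. The groups did not overlap in 3 members that were higher, *Sel1l*, *Bag3* and *Dnajc3*, and 1 that was lower, *Sdf2l1*, beside 17.7% and 7.34% of all clusters.

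Of the 14 ER chaperones and isomerases 10 were below wild type in endothelial cells, with a median of -0.09 where the median over all clusters was 0.07. This rested on wild type array A, which was above the wild type mean in 14 of 14 genes. Without it 6 of 14 were below and the median was 0.02. The 5 tested sensors and transcription factors lay between 0.0014 (*Atf6*) and 0.28 (*Atf4*), and the 4 degradation factors between 0.04 (*Herpud1*) and 0.45. *Hspa1a* and *Hspa1b* read 1894, 1404 and 912 against 2185, 1345 and 2087, with wide overlap and a difference of -0.45 (adjusted p = 0.422). They passed the screen without mutant array A, at -0.69, and without wild type array B, at -0.67. Of the markers of other cells in endothelial arrays, 1 of 3 tested mesangial markers rose, *Serpine2* by 1.27, and the 3 tested leukocyte markers lay between 0.45 and 0.78 without passing. Leukocyte sums were 1218, 831 and 628 in mutant and 549 to 709 in wild type arrays. Erythroid sums were 3926, 1378 and 2473 in wild type arrays A, B and C against 1246 to 1808 in mutant arrays. Both tested erythroid markers were at -0.73 without passing, and wild type array A had the highest sum. Tubule sums were 419 to 448 in mutant and 481 to 493 in wild type arrays. Of 18 immediate early genes 2 rose, *Egr1* and *Ier3*. Their part in the endothelial values was not tested.

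**Figure D3:**
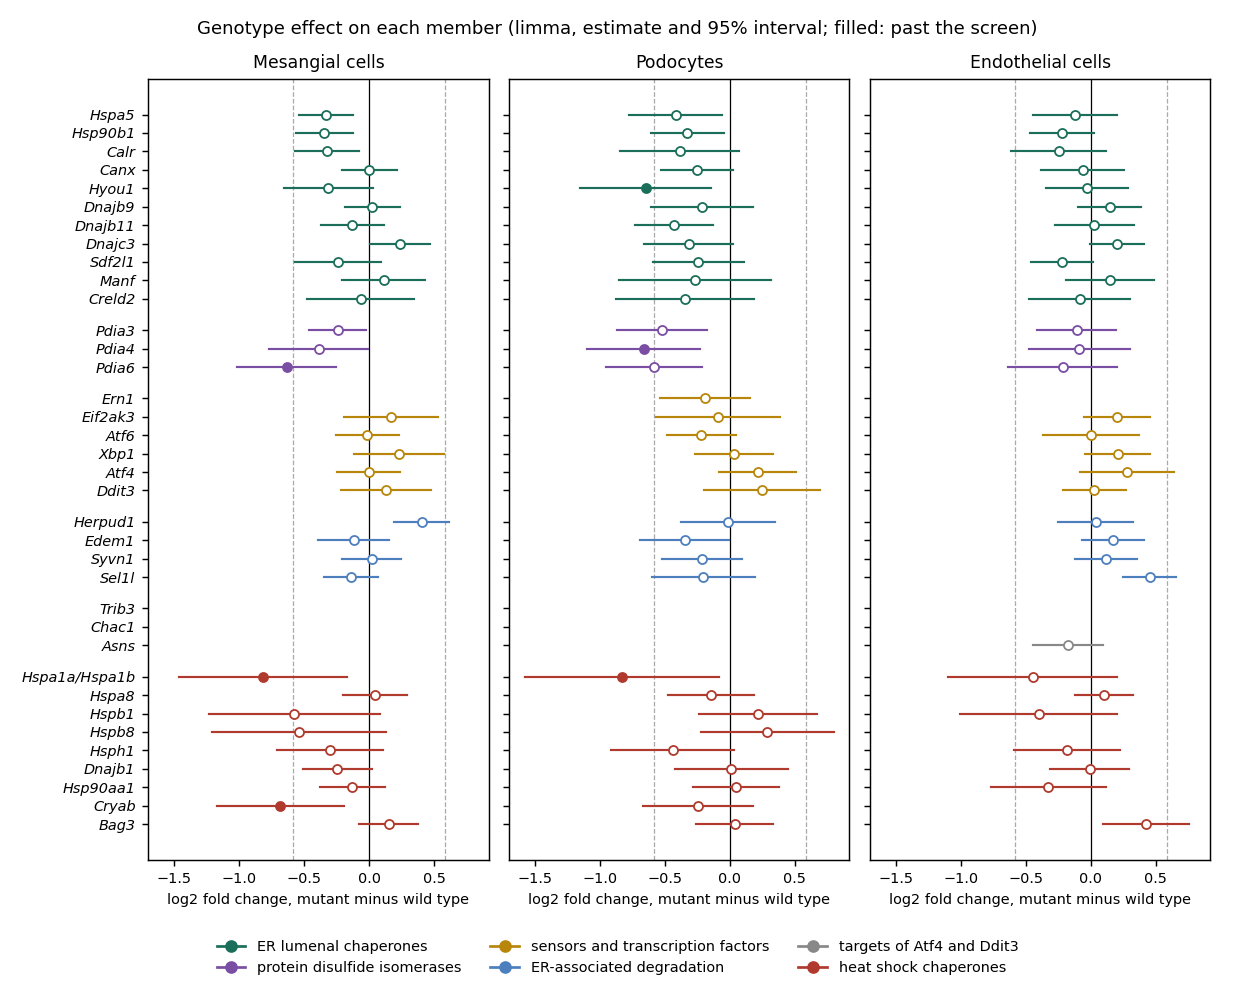
Log2 fold changes, mutant minus wild type, with the 95% confidence interval of the limma fit for each member tested in each cell type, coloured by role. Filled points passed the screen and dashed lines mark a fold change of 1.5. A line without a point had no array with a signal of 100 in that comparison. The filled points are *Hyou1*, *Pdia4* and *Hspa1a*/*Hspa1b* in podocytes and *Pdia6*, *Hspa1a*/*Hspa1b* and *Cryab* in mesangial cells.

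Whether the genotype effect differed between cell types was tested as an interaction over all 18 arrays. Between podocytes and mesangial cells 1 member passed the screen, *Hspb8*, with an interaction of 0.83 ± 0.34 (SE, log2, limma adjusted p = 0.326), beside 5.43% of all clusters. With the fit limited to the 12 arrays of these cell types, no member passed. *Hspb8* is a small heat shock protein that works with *Bag3*, and it read 438, 292 and 527 in mutant and 337, 302 and 363 in wild type podocytes, against 118, 128 and 246 and 199, 220 and 259 in mesangial cells. Mutant podocyte arrays A and C were the highest of the podocyte arrays and mutant mesangial arrays A and B the lowest of the mesangial arrays.

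Between podocytes and endothelial cells 2 members passed, beside 10.6% of all clusters. They were *Hyou1* at -0.62 ± 0.26 (SE, limma adjusted p = 0.169) and *Sel1l* at -0.66 ± 0.17 (adjusted p = 0.0567). Between mesangial and endothelial cells *Sel1l* at -0.59 ± 0.17 (adjusted p = 0.107) and *Cryab* (adjusted p = 0.189) passed, beside 6.92% of all clusters. *Cryab* was at most 87.7 in every endothelial array, close to the array medians of 62.8 to 71.6, so its interaction sets the mesangial difference against a signal near background, and 1 member remains without it. No member passed an adjusted p of 0.05 with a fold over 1.5 in any of the 3 interactions, beside 0.717%, 2.01% and 1.06% of all clusters. For *Hspa5* the interaction between podocytes and mesangial cells was -0.09 (adjusted p = 0.914) and that between podocytes and endothelial cells -0.30 (adjusted p = 0.344). A difference of the genotype effect on *Hspa5* between cell types was not shown with 3 arrays per group. *Dnajc3*, which blocks *Eif2ak3* and assists *Hspa5*, had an interaction of -0.56 (adjusted p = 0.124) between podocytes and mesangial cells and of -0.52 (adjusted p = 0.0746) between podocytes and endothelial cells, under the fold threshold in both.

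The wild type arrays set the members' levels in the 3 cell types side by side. These comparisons share the wild type arrays that serve as controls above, among them mesangial array C with its signal of other cell types. The wild type podocyte arrays held endothelial marker sums of 4344 to 5774. The part of such signal in the differences below was not tested. Podocytes were higher than mesangial cells in 5 of 33 tested members and lower in 0, beside 6.35% of all clusters higher and 10.2% lower. All 5 also had an adjusted p under 0.05, beside 15.4% of all clusters. They were *Cryab* by 0.91, *Edem1* by 0.87, *Pdia6* by 0.70, *Pdia4* by 0.65 and *Syvn1* by 0.59, and the largest adjusted p among them was 0.0159. The dimmer cluster of *Cryab* differed by 0.30 (limma adjusted p = 0.105) and did not pass the screen. With array medians subtracted 3 members passed in place of 5. *Hyou1* was 1.49-fold higher and just under the fold threshold.

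Against endothelial cells wild type podocytes were higher in 6 and lower in 4 of 34 tested members, beside 10.3% and 12.7% of all clusters, and the 10 also had an adjusted p under 0.05, beside 22.5% of all clusters. In podocytes the ER members *Hyou1* (262, 273 and 306 against 158, 120 and 129), *Pdia4*, *Edem1* and *Pdia6* were higher, by 1.05, 0.90, 0.79 and 0.68. The small heat shock genes *Cryab* (898, 848 and 873 against 78, 75 and 68) and *Hspb8* (337, 302 and 363 against 77, 68 and 78) were also higher, against endothelial signals near the array medians. The lower members were *Hspb1* by -1.48, *Hspa1a* and *Hspa1b* by -1.19 and *Bag3* by -0.82, and *Asns*, which stayed under 100 in podocytes. For each of these 10 the groups were apart. *Cryab*, *Hspb8* and *Asns* were tested only because 1 of the groups was above 100, so no fold is given for them, and without them 4 members were higher and 3 lower.

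Mesangial cells were higher than endothelial cells in 2 and lower in 5 of 33 tested members, beside 10.3% and 8.56% of all clusters, all 7 with an adjusted p under 0.05, beside 17.9% of all clusters. The higher members were *Cryab* and *Hspb8*, both under 100 in endothelial cells. *Hspb1*, *Hspa1a* with *Hspa1b* and *Hsph1* were lower by -1.37, -0.79 and -0.77, and *Asns* was lower with mesangial signals under 100. *Eif2ak3* was lower with mesangial signals of 81.0, 81.7 and 117 against 155, 136 and 124, above 100 only in array C of the wild type mesangial cells. No fold is given for these 4 members, and *Hspb1*, *Hspa1a* with *Hspa1b* and *Hsph1* are the calls with both groups above 100 throughout. A dimmer cluster of *Hspa1a* alone differed by -0.38 and did not pass the screen, while a dimmer one shared by both genes passed at -0.82. *Asns*, the asparagine synthetase that *Atf4* induces, read 144, 148 and 115 in wild type endothelial cells, 65.2, 51.1 and 67.7 in podocytes and 50.2, 51.3 and 66.9 in mesangial cells. It was above 100 in endothelial cells of both genotypes and in no other array.

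In wild type cells *Hspa1a* with *Hspa1b* and *Hspb1* were highest in endothelial cells, and an order of podocytes and mesangial cells was not shown. *Hspa1a* and *Hspa1b* read 2185, 1345 and 2087 in endothelial, 1064, 1108 and 1002 in mesangial cells and 694, 1085 and 681 in podocytes, where the difference between podocytes and mesangial cells was -0.40 (limma adjusted p = 0.147) and not beyond the spread. *Hspb1* read 1036, 706 and 859 in endothelial cells, 286, 243 and 527 in mesangial cells and 252, 380 and 304 in podocytes, and the latter groups overlapped. Beside this, immediate early genes were also lower than in endothelial cells, 6 of 17 tested in podocytes, where *Ier3* was higher by 0.61, and 6 of 17 in mesangial cells, beside 12.7% and 8.56% of all clusters lower, with *Jun* at -0.70 and -1.47. Their summed signal was 5338 to 6774 in wild type endothelial arrays, 4083 to 5060 in podocytes and 4205 to 4375 in mesangial cells. Whether sorting or dissociation acted on these genes was not tested.

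**Figure D4:**
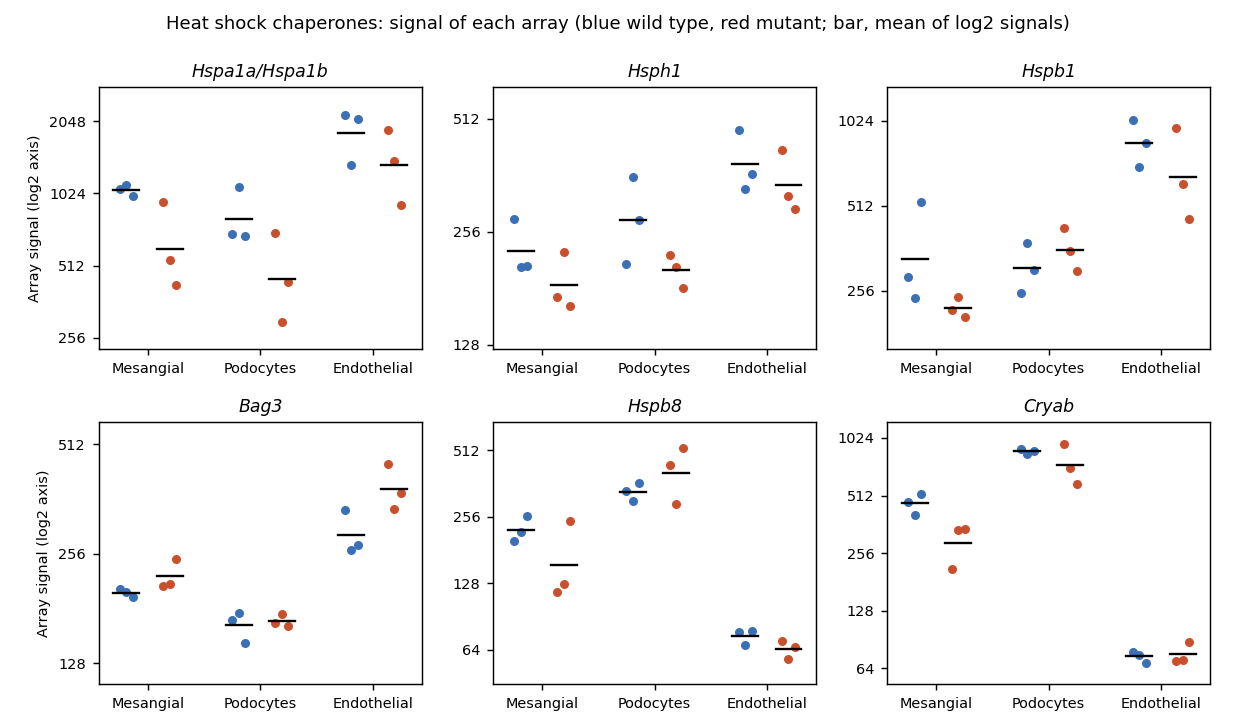
Linear signal on a log2 axis for 6 heat shock clusters, 1 point per array, wild type blue and mutant red, with the mean of the log2 signals as a bar. By the group means *Hspa1a*/*Hspa1b*, *Hspb1* and *Bag3* are highest in endothelial cells. For *Hspa1a*/*Hspa1b* and *Hspb1* mutant endothelial array C lies below some mesangial arrays. *Hspb8* and *Cryab* are highest in podocytes and at most 87.7 in endothelial cells.

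Wider lists of related genes were read next to the members. Of 45 further genes of ER folding and degradation, 39 were tested in podocytes and 2 fell, 5.13% beside 4.34% of all clusters. They were the ER stress transcription factor *Creb3l1* at -0.70 and *Ganab*, the glucosidase that trims new glycoproteins, at -0.64, with adjusted p of 0.135 and 0.173 in limma. *Ganab* read 382, 282 and 278 in mutant and 478, 472 and 502 in wild type podocytes, and the groups were apart. The median of the 39 was -0.20, and 32 of the 39 had a negative difference, where 6805 of all 12113 clusters were negative with a median of -0.04. In mesangial cells 0 of 38 passed, with 2 higher and 5 lower at an unadjusted p under 0.05 where all clusters had 8.82% and 12.9%, and in endothelial cells 1 of 37 rose, 2.70% beside 2.96% of all clusters, the collagen-folding isomerase *Fkbp14* by 0.65 (adjusted p = 0.0528). In endothelial cells 32 of the 37 had a positive difference, with a median of 0.19, where 7352 of all 11330 clusters were positive with a median of 0.07.

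Of 33 genes of the integrated stress response, none of 25 tested passed in mesangial cells and none of 21 in podocytes. At an unadjusted p under 0.05 these lists held 2 higher and 1 lower in mesangial cells, beside 8.82% and 12.9% of all clusters, and 1 higher and 2 lower in podocytes, beside 3.39% and 10.9%. In endothelial cells 3 of 22 rose, beside 2.96% of all clusters. *Eif2ak2*, the interferon-induced kinase PKR, read 404, 447 and 371 in mutant and 224, 238 and 215 in wild type arrays, without overlap, and rose by 0.85 ± 0.10 (SE, limma adjusted p = 0.00898). *Wars*, a tryptophan tRNA synthetase, rose by 1.13 (adjusted p = 0.141) and the amino acid transporter chain *Slc3a2* by 0.69 (adjusted p = 0.169). *Eif2ak2* and *Wars* are also known interferon targets.

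A further list held 42 heat shock proteins, co-chaperones and their regulators. Most act in the cytosol, but the list includes the mitochondrial chaperones *Hspa9*, *Hspd1*, *Hspe1* and *Trap1*, the collagen chaperone *Serpinh1* of the ER and the ER-associated Hsp70 relative *Hspa13*. Of these genes 36 were tested in mesangial cells, where 3 fell and 1 rose, beside 3.12% of all clusters lower and 2.08% higher. *Hspa12a*, a distant Hsp70 relative, read 187, 152 and 175 in mutant and 277, 347 and 283 in wild type arrays and fell by 0.82 ± 0.13 (SE, limma adjusted p = 0.029). The others were *Fkbp4*, an Hsp90 co-chaperone, by -0.61, and *Hspb2*, whose cluster is the one of *Cryab* and was counted above. In podocytes 2 of the 36 tested fell and 1 rose, beside 4.34% of all clusters lower and 1.26% higher. Those that fell were *Chordc1* at -0.78 and *Hspa13* at -0.71. *Fkbp5*, an Hsp90 co-chaperone that glucocorticoids induce, rose in each cell type, by 0.87 (adjusted p = 0.0869) in mesangial cells, by 1.79 (adjusted p = 0.213) in podocytes and by 1.41 (adjusted p = 0.163) in endothelial cells, and within each cell type the mutant arrays were the upper 3 of the 6.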

How the data were processed

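RNA of the sorted cells went through a single round of Ribo-SPIA amplification, a linear amplification from limiting RNA, before hybridization. The authors deposited linear intensity values for 28856 transcript clusters and 18 arrays, which the sample records ascribe to RMA in Expression Console, that is background correction, quantile normalization and a summary over probes. A further 18 columns of the table, marked as normalized values of the same arrays, were not used. The series record names exon arrays and GeneBASE, whereas the file header and the methods name gene arrays and GeneSpring. Quantile normalization sets the arrays to a common distribution, so a shift of all genes together cannot be seen, and the linear amplification can lower precision for dim genes. Array medians lay between 62.8 and 71.6. Precision is limited by having 3 arrays in a group. The series record calls the triplicates biological.

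Clusters whose signal reached 100 in any array of a comparison were fitted in limma 3.58.1 (lmFit, eBayes; R 4.3.3) on log2 signals, without covariates, within each cell type for genotype and within wild type for cell type. Interactions were fitted over all 18 arrays. A gene with several clusters was read from the one with the highest mean signal, which applied to 7 members. The fit was tested on simulated data. Standard errors are those of the limma fit. Figures and promoter searches used Python 3.11.15. Promoter sequences came from a RefSeq table of GRCm38.p6, and no coordinates were taken from the array files.

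The members, the lists of related genes and the cell markers were chosen with earlier results of these data known, so they are no independent support. Named are Hspa5, Ddit3, Cd2ap, members that passed the screen with their value in each array, the largest differences between wild type cells, and up to 5 genes of each wider list that passed. Herpud1, Sel1l, Bag3, Dnajc3 and the other members given with values are outside this rule, and their choice followed a look at the values. The alternatives were a signal minimum in all 3 arrays of a group or none, all 18 arrays in 1 fit or the 12 arrays of 2 cell types for an interaction, adjusted p, eBayes with trend and robust estimation, subtracted array medians, the mean over a gene's clusters and leaving out each array. The count of ER chaperones below wild type under these alternatives was added after the data were seen. RNA-seq libraries were not analysed here.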

Additional observations from a re-analysis of the deposited data

How the results depend on the processing

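The numbers of members that passed the screen rest on 3 arrays per group and moved with single arrays. With 1 array left out at a time, the screen held 1 to 3 members in mesangial cells, 0 to 5 in podocytes and 0 to 2 in endothelial cells, and for the interactions 0 to 3 between podocytes and mesangial cells, 1 to 4 between podocytes and endothelial cells and 0 to 3 between mesangial and endothelial cells. The number of the 14 ER chaperones and isomerases below wild type ranged from 9 to 12 in mesangial cells, from 13 to 14 in podocytes and from 6 to 11 in endothelial cells. With an adjusted p under 0.05 in place of the unadjusted one, 0 members passed in mesangial cells, 0 in podocytes and 0 in each of the 3 interactions, while the counts between wild type cell types did not change. With array medians subtracted, wild type podocytes and mesangial cells differed in 3 members in place of 5, and the interaction between podocytes and endothelial cells held 5 in place of 2. The interaction between podocytes and mesangial cells lost its 1 member when fitted over 12 arrays, and that between mesangial and endothelial cells held 1 in place of 2 with the mean over a gene's clusters. In the genotype comparisons within a cell type, no member that passed the screen changed its direction under the alternatives run. For the wild type comparisons and the interactions only counts were followed, so directions of single members were not checked there. The cause of these shifts was not tested. No paired analysis was possible because the replicate numbers of the labels are not shared between the groups compared. A signal near the array medians, as for Trib3, Chac1 and, outside endothelial cells, Asns, limits what can be said of these genes.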
